A study of Drosophila melanogaster with 8 samples.

Results

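The genes described here are the odorant-binding proteins and the chemosensory receptors carried by a 2-colour cDNA array hybridised with head RNA of Drosophila melanogaster. They were taken by name, as rows that named 1 gene whose current symbol starts with Obp and a digit, or with Or, Gr or Ir followed by digits and a lower-case letter. The rule found 24 of 6793 named genes, of which 19 encode binding proteins and 5 encode receptors (Gr61a, Ir47a, Ir76a, Ir93a and Or33a). The fly genome table of RefSeq lists 51 genes of the first kind and 185 of the second. Most genes of both kinds were therefore not among those found, above all the receptors. A further 8 rows named a pair of genes that included a family member and were left out.

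All flies were unmated Oregon-R males, 3 to 4 days old at the start, and each array set RNA of treated heads against RNA of heads from control flies kept on normal food. Treated flies ate pentylenetetrazole, a blocker of GABA-A receptors that causes seizures, for 7 days and then sodium valproate, which is given against epilepsy and inhibits histone deacetylases, for 3 days. They were collected on day 10 (n = 4 arrays), or after 4 more days on normal food on day 14 (n = 4 arrays). On 2 of the 4 arrays of each day the dyes were swapped. The doses differ between sources: pentylenetetrazole is put at 8 mg/ml by the labels and at 0.33 mg/ml by the description of the design, and valproate at 0.33 and 24 mg/ml. Heads were pooled from vials that started with 30 flies, and no single cell type was isolated, so fewer cells of a type and less RNA per cell cannot be told apart.

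Odorant-binding proteins are small secreted proteins that support cells of the sensory hairs release into the fluid around the nerve endings, where they bind odours, pheromones or tastants. Several of them are also made outside the sense organs, in fat body or glia. The receptors sit in the membrane of the sensory neurons themselves: Or proteins are odorant receptors of antenna and palp, Gr proteins are mostly taste receptors, and Ir proteins descend from ionotropic glutamate receptors and detect acids, amines, tastants, temperature or humidity. A receptor gene is usually expressed in few neurons, whereas some binding protein genes give abundant RNA in the antenna or the labellum.

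Values are log2 ratios of treated over control RNA, centred on the median of each array. Errors are standard errors of a limma fit over all 8 arrays with a term for the dye, and n is the number of arrays. That fit gives both days 1 spread, so an error does not measure the spread of the arrays of its own day. Over all features the median SD between arrays was 0.47 at day 10 and 0.24 at day 14. Errors therefore tend to be too narrow at day 10 and too wide at day 14. Adjusted p-values follow Benjamini and Hochberg, across every feature in the fit. A log2 ratio carries no level, so the abundance of the genes cannot be compared. The deposited values were not stated to be turned for the swapped arrays. For the 8 pairs of arrays of a day with opposite dyes, medians of print blocks over named spots of one array were correlated with those over unnamed spots of the other, as deposited and in both directions. All 16 values, which are not independent, lay above 0 (0.242 to 0.838), and the swapped arrays were turned here on that basis. The overall sign rests on reading each value as Cy5 over Cy3, which is likely but not stated; with the other reading every sign below would change. Of 14 listed photoreceptor genes 7 were named on the array. Arr1, trp, trpl and inaD of the light response had values on all 8 arrays, and rdgA on 3 arrays of each day. Cpn had values on the 4 day 10 arrays only and Arr2 on 1 array of each day. Of the 6 symbols listed for antennal sense organs, 1 was named on the array, lush. Of the 10 symbols listed for the male reproductive tract 1 was named, Acp36DE, with values on 3 day 10 arrays and 1 day 14 array. Of all named genes, 77.0% had values on at least 3 day 10 arrays and 46.7% on at least 3 day 14 arrays. A value on an array therefore could not check the head label.

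Binding protein genes were measured on most arrays of both days, and at day 14 they were measured more widely than most named genes. A value was taken to mean that at least 1 spot of the gene passed the authors' filters on signal, background, uniformity and saturated pixels. A blank therefore need not mean a weak signal. Of the 19 binding protein genes, 16 to 18 had a value on a day 10 array and 12 to 18 on a day 14 array. The lowest count, 12, was that of day 14 replicate 2. Among the 6793 named genes, a day 10 array gave values for 58.0% to 86.6%, and a day 14 array for 47.6% to 61.8%. At day 14, 16 binding protein genes (84.2%) had values on at least 3 arrays, against 46.7% of all named genes. The binding protein genes had 64 spots for 19 genes, up to 6 for Obp56d, against 15116 spots for all 6793 named genes, and a gene with more spots has more chances of a value. Counted by spot, a mean of 71.9% of binding protein spots had a value at day 14, against 52.5% of all named spots, and 87.1% against 76.4% at day 10. Over the whole array, day 10 replicate 3 and the day 14 arrays had 11208 to 14422 spots with a value, against 18976 to 19906 on the other day 10 arrays.

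Among receptors, Gr61a and Ir76a had values on all 8 arrays, and Ir47a lacked only day 10 replicate 2. The odorant receptor gene Or33a had values on day 10 replicates 1 and 4 and on all 4 day 14 arrays. Ir93a, whose protein works in temperature and humidity sensing, had values on day 10 replicates 1 and 4 and on no day 14 array. All 5 receptors were seen on day 10 replicates 1 and 4, and 2 of 5 on day 10 replicate 2. Obp44a had a value on no day 10 array and on every day 14 array. Of all named genes, 3.74% had a value on no day 10 array and 21.45% on no day 14 array. Obp8a had a value on day 10 replicate 2 and all day 14 arrays, and Obp84a on all day 10 arrays and day 14 replicate 1 only.

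**Figure D1:**
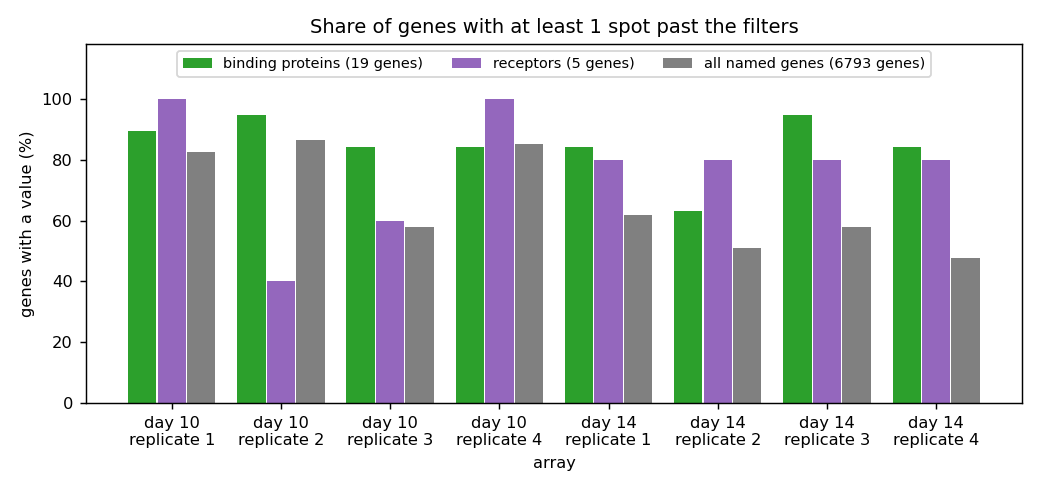
Bars give the percent of genes with at least 1 spot past the authors' filters on each of the 8 arrays, for 19 binding protein genes, 5 receptor genes and 6793 named genes. Binding proteins stood above all named genes on every array except day 10 replicate 4, and receptors ranged from 40% on day 10 replicate 2 to 100% on day 10 replicates 1 and 4.

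No binding protein or receptor gene passed the test at day 10, at day 14 or in the difference between the days. At day 10, 20 of the 24 genes could be tested and 0 were called at an adjusted p of 0.05 with limma, where 0.0% of all 11509 features were called. Obp99a was the only gene of the 20 with an unadjusted p under 0.05, a level that 6.67% of all features reached (2.94% with a lower ratio). With the day 10 arrays fitted alone the unadjusted p of Obp99a was 0.065 with limma, and 0.0% of all features were called. At day 14, 20 genes could be tested, 0 were called (0.0% of all 7529 features) and 0 had an unadjusted p under 0.05 (3.98% of all features). With the day 14 arrays fitted alone, 0.93% of all features were called, no member among them, and Obp99c was the 1 member with an unadjusted p under 0.05 (11.8% of all features). The fitted log2 ratios of the members ran from -0.51 to 0.30 at day 10 and from -0.35 to 0.28 at day 14. The median absolute log2 ratio was 0.18 over the members and 0.17 over all features at day 10, and 0.16 and 0.11 at day 14.

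Taken as a family, the binding proteins lay near the background share at day 10 and more often below 0 at day 14, a difference that was not tested. At day 10, 7 of 17 tested were below 0 (41.2%), against 43.5% of all features, and their median was 0.12, against 0.04 over all features. That median was 0.00 without day 10 replicate 1, -0.02 without day 10 replicate 3, 0.05 without day 10 replicate 2 and 0.03 with arrays scaled to one spread. At day 14, 12 of 16 were below 0 (75%), against 50.7% of all features, and the median was -0.12, against -0.00 over all features. The day 14 median stayed below 0 under each alternative that was run except with swapped arrays left unturned (0.037). Per array, the median of the binding proteins was 0.27, 0.08, 0.06 and -0.20 on day 10 replicates 1 to 4 and -0.06, 0.05, -0.12 and -0.15 on day 14 replicates 1 to 4. Arrays of a day therefore lay on both sides of 0 on each day.

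**Figure D2:**
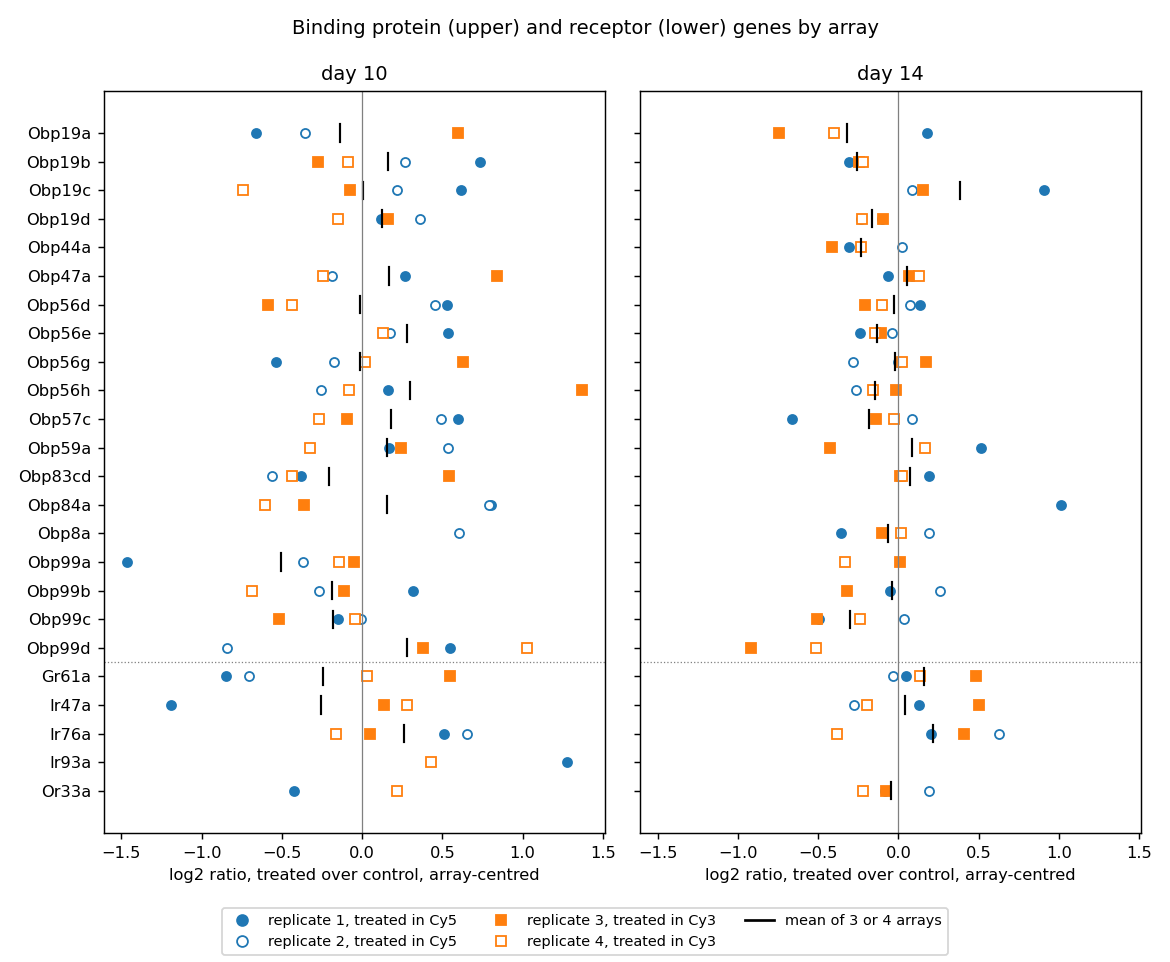
Each point is the array-centred log2 ratio of treated over control RNA of 1 gene on 1 array, at day 10 (left) and day 14 (right), circles for arrays with treated RNA in Cy5 and squares for swapped arrays; black ticks are means of 3 or 4 arrays. Day 10 points spread wider than day 14 points, and for genes such as Obp56d and Gr61a at day 10 circles and squares lie on opposite sides of 0.

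The spread between arrays was wider at day 10 than at day 14 for these genes and for the array as a whole. The SD between arrays had a median of 0.51 over the 20 genes tested at day 10, against 0.47 over all features, and of 0.21 over the 20 tested at day 14, against 0.24. At day 10, 9 of 20 genes were split by dye orientation, with all arrays of one orientation above 0 and all of the other below, against 40.1% of all features. At day 14 this held for 3 of 20, against 27.7% of all features. The dye term was larger than the fitted change for 9 of 20 members at day 10 and 11 of 20 at day 14, against 58.1% and 60.5% of all features. Arrays all on one side of 0 were found for 3 of 20 genes at day 10 (12.6% of all features) and 6 of 20 at day 14 (18.4% of all features). The 3 at day 10 were Obp99a and Obp99c below 0 (6.17% of all features) and Obp56e above 0 (6.39%). The 6 at day 14 were Obp19b, Obp19d, Obp56e and Obp56h below 0 (9.62% of all features) and Obp19c and Obp83cd above 0 (8.83%), of which Obp19d and Obp56e had values on all 4 arrays. For Obp19c, Obp56h and Obp83cd the one sign was that of the mean of clones that disagreed. On day 14 replicate 3 their clones stood at -0.20 and 0.50, at 0.23 and -0.25, and at 0.10 and -0.08.

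The Obp99 genes lie close together in the genome, with 5 genes between Obp99a and Obp99c, 2 between Obp99c and Obp99d and 1 between Obp99d and Obp99b. Obp99a had the lowest ratio of all members at day 10, at -1.47, -0.37, -0.05 and -0.14 on replicates 1 to 4. Every array was below 0, and replicate 1 stood far below the other arrays. The fitted value was -0.51 ± 0.20 (n = 4, 1.42-fold lower, adjusted p = 0.73 with limma), and -0.23 without replicate 1. At day 14 Obp99a had values on 2 arrays, 0.01 on replicate 3 and -0.33 on replicate 4, and was left out by the rule of 3 arrays.

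Obp99c was measured on all 8 arrays and lay at or below 0 on nearly all of them. It stood at -0.15, -0.01, -0.52 and -0.04 on day 10 replicates 1 to 4 and at -0.50, 0.04, -0.51 and -0.24 on the day 14 replicates. One array of the 8, day 14 replicate 2, was above 0. The fit gave -0.18 ± 0.15 at day 10 (adjusted p = 0.75) and -0.30 ± 0.14 at day 14 (n = 4 each, adjusted p = 0.9994 with limma), and the difference between the days was -0.12 ± 0.20. The call did not pass with day 14 fitted alone either (adjusted p = 0.33), and the day 14 value was -0.19 without day 14 replicate 1, -0.44 with print blocks centred and 0.07 with swapped arrays left unturned. The print block of its spots had medians of 0.48 on day 14 replicate 2 and 0.15 on day 14 replicate 1, above those of the swapped arrays (-0.06 and -0.02).

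Obp99b, also named tsx, is known as a male-biased gene of the head fat body. Its day 10 ratios were 0.32, -0.27, -0.11 and -0.69, and those of day 14 were -0.05, 0.26 and -0.32 on replicates 1 to 3. Arrays of both days lay on either side of 0, with fitted values of -0.19 ± 0.16 and -0.11 ± 0.18. Obp99d stood at 0.55, -0.84, 0.38 and 1.03 on the day 10 arrays, an SD of 0.79, and at -0.92 and -0.51 on the 2 day 14 arrays with a value. Its day 10 fit was 0.28 ± 0.25 (n = 4). Both day 14 arrays with a value were swapped arrays, and the gene was left out at day 14 by the rule of 3 arrays. With values on 2 arrays allowed, its day 14 value was -1.14 ± 0.40 (adjusted p = 0.90 with limma). Its difference between the days was then -1.42 ± 0.47 (adjusted p = 0.57 with limma). That day 14 value lay below both arrays because the dye term, -0.42, came from the day 10 arrays alone. On day 10 replicates 2 and 4 the clones of Obp99d lay far apart, at 0.17 and -2.85 and at -0.24 and 2.30.

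Other male-biased genes of the head fat body gave the lowest day 14 values of the listed fat body markers. The gene sxe2 was at -0.75, -0.63, -0.69 and -0.61 on the day 14 arrays (-0.67 ± 0.13, adjusted p = 0.59), and Cyp4d21, also called sxe1, was fitted at -0.77 ± 0.18 (adjusted p = 0.71). All 6 fat body markers tested at day 14 had fitted values below 0 (50.7% of all features), with a median of -0.25. Of these apolpp was at -0.005, and only sxe2 and Cyp4d21 were below 0 on all 4 arrays. At day 10, 3 of 7 fat body markers were below 0 (43.5% of all features), with a median of 0.10. The median of the fat body markers per array ran from -0.61 to 0.25 at day 10 and from -0.50 to -0.12 at day 14. Their part in the values of Obp99b and Obp99c was not tested.

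Obp44a encodes a binding protein that is made in glia of the brain. At day 14 its ratios were -0.31, 0.02, -0.41 and -0.23, below 0 on 3 of 4 arrays, with a fit of -0.23 ± 0.14 (adjusted p = 0.9994 with limma). The fit ranged from -0.32 without day 14 replicate 2 to -0.15 without day 14 replicate 1, and was 0.09 with swapped arrays left unturned. Of the listed glial markers, the astrocyte gene alrm was at -0.64, -0.73 and -0.34 on day 14 replicates 1 to 3, fitted at -0.51 ± 0.19, and the glutamine synthetase gene Gs2 was below 0 on 4 of 4 arrays at -0.23 ± 0.13. These were the only 2 of the 9 listed glial markers tested at day 14, and neither passed (adjusted p = 0.9994). Their part in the value of Obp44a was not tested.

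The 4 Obp19 genes are direct neighbours with no other gene between them. Obp19d, formerly Pbprp2, was the most tightly measured of all members at day 14 with 4 arrays, at -0.23, -0.10, -0.09 and -0.22 (SD 0.076). All 4 arrays lay below 0, by a small amount: the fit was -0.16 ± 0.13 (1.12-fold lower, adjusted p = 0.9994). With day 14 fitted alone the error of Obp19d was 0.11 (adjusted p = 0.57 with limma). At day 10 it stood at 0.12, 0.36, 0.16 and -0.15, with a fit of 0.12 ± 0.13, so the difference between the days was -0.28 ± 0.18 (adjusted p = 0.78 with limma). With print blocks centred the day 14 value of Obp19d was -0.10 and its difference between the days -0.15.

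Obp19b is expressed in taste organs. Its day 14 ratios were -0.31, -0.25 and -0.22 on replicates 1, 3 and 4, and its day 10 ratios 0.74, 0.27, -0.27 and -0.09. The day 10 values split by dye orientation, and the difference between the days was -0.35 ± 0.24 (adjusted p = 0.78). The days drew on different clones: one gave day 10 replicates 1 and 3 alone and the other day 14 replicates 3 and 4 alone, and the latter stood at -0.47 and 0.18 on day 10 replicates 2 and 4. Obp19a was below 0 on 2 of 3 arrays of each day, fitted at -0.11 ± 0.30 and -0.35 ± 0.27. Obp19c alone of the 4 was above 0 at day 14, at 0.91, 0.09 and 0.15 on replicates 1 to 3, with a fit of 0.28 ± 0.21 and with replicate 1 far above the other arrays. At day 10 Obp19c was split by dye, from 0.62 on replicate 1 to -0.74 on replicate 4, with a fitted value of 0.00 ± 0.20.

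Of the Obp56 genes, Obp56d and Obp56e have 1 gene between them, as Obp56g and Obp56h have 2. All 4 had fitted values below 0 at day 14 (50.7% of all features), from -0.23 to -0.02, with a median of -0.08, and none passed. With print blocks centred, the day 14 values of Obp56d, Obp56e, Obp56g and Obp56h were -0.09, -0.02, 0.04 and -0.15. The median of spots put Obp56d at 0.03. Obp56e was above 0 on every day 10 array with a value (0.54, 0.17 and 0.13 on replicates 1, 2 and 4) and below 0 on every day 14 array (-0.24, -0.04, -0.11 and -0.15). The difference between the days, -0.40 ± 0.21, did not pass (adjusted p = 0.77 with limma). It shrank to -0.06 with print blocks centred. The day 14 values came from 1 of the 2 clones of the gene, which stood at 0.03 and 0.46 on day 10 replicates 2 and 4, where the other clone stood at 0.32 and -0.20.

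Obp56h is known for its part in male courtship and mating. It had 1 very high array at day 10, 1.37 on replicate 3, beside 0.16, -0.25 and -0.08 on replicates 1, 2 and 4. At day 14 it was at -0.26, -0.01 and -0.16 on replicates 2 to 4. The difference between the days, -0.52 ± 0.33, was the largest in size of the 17 members tested and did not pass (adjusted p = 0.78), and it was -0.11 without the high array. Obp56d, read by 3 clones, was at 0.53, 0.45, -0.58 and -0.44 on day 10 replicates 1 to 4, an even split by dye with a fit of -0.01 ± 0.15. With swapped arrays left unturned Obp56d would be 0.50 and the 1 member called. Obp56g was split by dye on both days, with fitted values of -0.02 on each.

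The other binding proteins gave no common direction. Obp57c was at 0.59, 0.49, -0.09 and -0.27 at day 10 and at -0.66, 0.08, -0.14 and -0.03 at day 14, where replicate 1 stood apart. The difference was -0.37 ± 0.24 (adjusted p = 0.78). On day 14 replicates 1, 2 and 4 a single clone had values, which stood at -0.04, 0.28, -0.37 and 0.07 on the day 10 arrays. Obp59a, needed for humidity sensing in the antenna, was on average above 0 on both days, at 0.16 ± 0.17 and 0.17 ± 0.19, with arrays on both sides of 0. Obp47a was at 0.17 ± 0.18 at day 10 and 0.06 ± 0.17 at day 14. Obp83cd stood at -0.38, -0.56, 0.54 and -0.44 at day 10, where replicate 3 alone was above 0 and 1 of its 2 clones was measured there, and at 0.19, 0.01 and 0.02 on 3 day 14 arrays. Obp84a, formerly Pbprp4, showed the largest dye term of the members tested at day 10 (0.64), with ratios of 0.80, 0.79, -0.36 and -0.61. Obp8a at day 14 was at -0.36, 0.19, -0.10 and 0.01, with a fit of -0.06 ± 0.15.

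None of the receptors passed either. Gr61a, a gustatory receptor of sugar-sensing neurons, was at -0.85, -0.71, 0.55 and 0.03 on day 10 replicates 1 to 4 and at 0.05, -0.03, 0.48 and 0.13 at day 14. Day 10 arrays were split by dye and day 14 arrays were above 0 on 3 of 4. The fits were -0.24 ± 0.16 and 0.16 ± 0.16, and the difference between the days was 0.40 ± 0.22 (adjusted p = 0.78 with limma). The print block of its spots had medians of -0.43 and -0.24 on the 2 unswapped day 10 arrays and 0.11 and 0.17 on the swapped ones, and with print blocks centred its day 10 value was -0.14.

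Ir47a lies in that same print block and gave a similar picture. It stood at -1.19, 0.14 and 0.28 on day 10 replicates 1, 3 and 4 and at 0.13, -0.27, 0.50 and -0.20 on the day 14 arrays, with fits of -0.37 ± 0.25 and 0.04 ± 0.19. Replicate 1 alone was below 0 at day 10. Ir76a, an ionotropic receptor of amine-sensing olfactory neurons, was above 0 on 3 of 4 arrays on each day. Its ratios were 0.51, 0.66, 0.05 and -0.17 at day 10 and 0.20, 0.63, 0.41 and -0.38 at day 14, with fits of 0.26 ± 0.16 and 0.21 ± 0.15 (adjusted p = 0.73 and 0.9994 with limma). The print block of Ir76a had medians of 0.52 and 0.61 on day 10 replicates 1 and 2. Or33a was at -0.09, 0.19, -0.07 and -0.22 at day 14, a fit of -0.05 ± 0.15. Its 2 day 10 values were -0.43 and 0.22. Ir93a had 1.28 and 0.43 on its 2 day 10 arrays, both above 0, and was not tested.

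Side by side, binding proteins and receptors did not keep one order from array to array. The median of the binding proteins with a value on an array (12 to 18 genes) minus that of the receptors with one was 0.69, 0.11, -0.08 and -0.42 on day 10 replicates 1 to 4, where it rested on 5, 2, 3 and 5 receptors. On the day 14 arrays, each with 4 receptors, it was -0.14, -0.03, -0.57 and 0.06. At day 10 the binding proteins were the higher family on the 2 arrays with treated RNA in Cy5 and the lower one on the swapped arrays, and at day 14 they were lower on 3 of 4. The fitted medians were 0.12 for binding proteins and -0.24 for 3 receptors at day 10, and -0.12 and 0.10 for 4 receptors at day 14. The receptor median at day 10 rested on few genes. It was 0.06 without day 10 replicate 1, -0.09 without day 10 replicate 3 and 0.06 without day 10 replicate 4. In each case Ir47a could no longer be tested. With every array kept and values needed on all 4 arrays, the receptor median at day 10 was 0.01.

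The difference between the days could be fitted for 14 binding proteins and 3 receptors. Of the binding proteins 10 of 14 were lower at day 14 (71.4%), against 54.6% of all 6419 features, with a median difference of -0.12, against -0.03. Of the receptors 2 of 3 were higher at day 14, with differences of 0.41 ± 0.29 for Ir47a, 0.40 for Gr61a and -0.05 ± 0.22 for Ir76a. With limma 0 members were called in the difference (0.0% of all features) and 0 had an unadjusted p under 0.05 (6.26% of all features). Obp56e had the smallest adjusted p of the members (0.77).

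**Figure D3:**
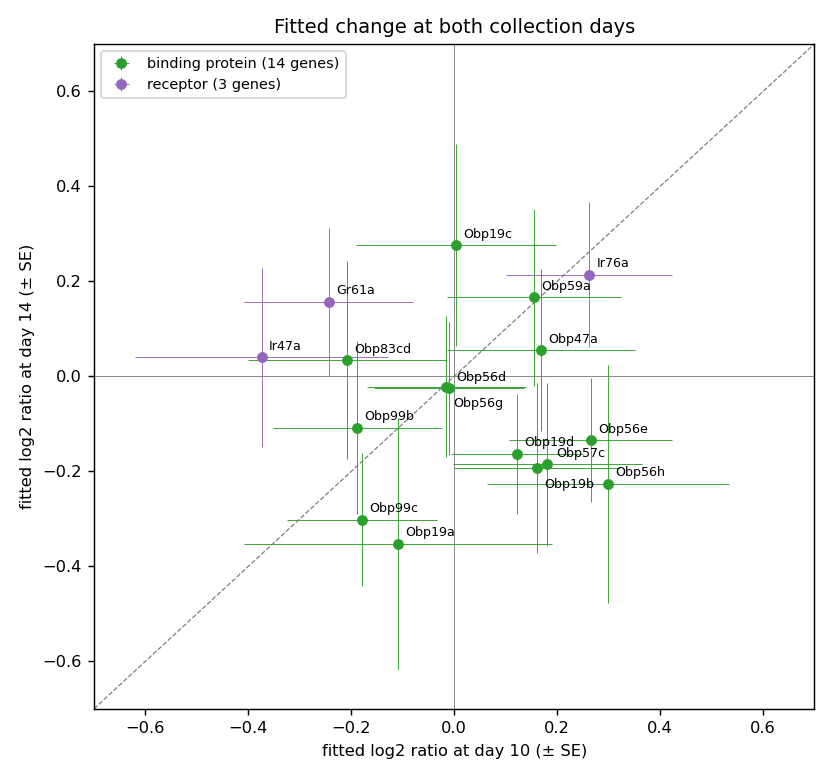
Fitted log2 ratios at day 10 (horizontal) and day 14 (vertical) with standard errors, for 14 binding proteins and 3 receptors tested on both days; the dashed line marks equal values. Obp19b, Obp19d, Obp56e, Obp56h and Obp57c lie above 0 at day 10 and below 0 at day 14, and Gr61a, Ir47a and the binding protein Obp83cd lie the other way, all with error bars near or across 0 on at least one axis.

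Clones of the same gene disagreed more than duplicate spots of one clone. Each clone was spotted as a pair of adjacent rows, which differed by 0.19 in the median over the 24 genes, close to 0.20 over all named genes. For 12 binding protein genes more than 1 clone had values on an array, and their clones lay 0.51 apart in the median, against 0.42 over 631 named genes with several clones. With print blocks centred these gaps were 0.46 and 0.36. The gap between clones exceeded the difference between duplicate spots for 9 of the 12. Obp19d had the closest clones, 0.076 apart, and Obp99b the widest, 1.34 apart.

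The Obp99b clones pointed opposite ways on day 10 replicates 1 and 2. The first stood at -0.35 and -1.04 there and the second at 0.99 and 0.50, so their mean hid values of either sign. The second clone had no value on any day 14 array. Obp99d had the single widest gap: on day 10 replicate 2 its clones were at 0.17 and -2.85, and on replicate 4 at -0.24 and 2.30. The value of -2.85 came from a lone spot whose duplicate had no value. On day 14 replicates 3 and 4 they came close to each other, at -1.01 and -0.83 and at -0.58 and -0.45. For Obp56g the clones were at 0.27 and -1.33 on day 10 replicate 1 and at 0.17 each on day 14 replicate 3.

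**Figure D4:**
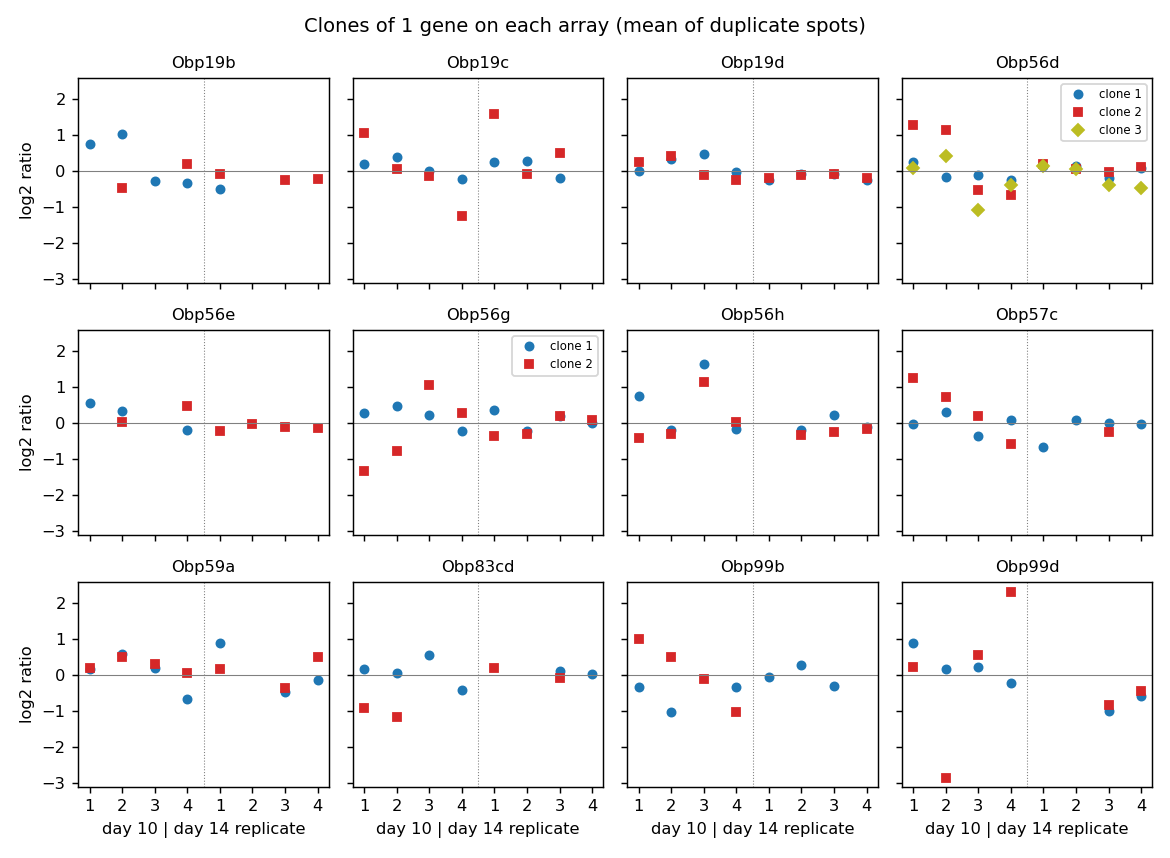
Log2 ratios of each clone (mean of its duplicate spots, or the spot with a value where the other was blank) for the 12 binding protein genes with several clones, on day 10 replicates 1 to 4 (left of the dotted line) and day 14 replicates 1 to 4 (right). Clones of Obp19d lie close together, whereas those of Obp99b and Obp99d lie far apart on day 10 arrays.

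Other genes of the chemosensory system were scarce on the array. Of 62 listed genes, among them accessory proteins, regulators of sensory neurons and parts of their cilia, 12 were named on it, 5 were tested at day 10 and 4 at day 14. None was called, with 2 of 5 and 1 of 4 below 0 and medians of 0.01 on both days. The gene pdm3, a POU-domain transcription factor that selects odorant receptor expression, had the smallest p at day 10. It was at -0.62, -0.21, -0.54 and -0.68, below 0 on 4 of 4 arrays, with a fit of -0.51 ± 0.15 (adjusted p = 0.73), and had no value at day 14. The ciliary transport genes Oseg1 and Oseg4 followed at -0.33 ± 0.28 and 0.37 ± 0.36. At day 14 Oseg6 at -0.06 ± 0.15, Oseg5 at 0.03 ± 0.14 and CheA75a at 0.01 ± 0.16 had the smallest p. The binding protein gene lush, which serves the detection of the pheromone vaccenyl acetate and whose symbol keeps it out of the members, was at -0.60, 1.65 and 0.44 on day 10 replicates 1, 3 and 4, with a fit of 0.24 ± 0.27.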

How the data were processed

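RNA of treated and control heads, in Cy3 and Cy5, was hybridised to 8 cDNA arrays, 4 per day. Total RNA of head pools was made into labelled cRNA, per the labels' protocols. The design text of the series names the 4 arrays of a day biological replicates, and says that the authors used a GenePix 4000A scanner and GenePix Pro 6.0, and Acuity 4.0 for a ratio-based normalization. Spots failing their filters (R2 between channels 0.6, signal-to-noise ratio 3, saturated pixels 3%) were taken to be the blank cells. The deposited values were read as log2 ratios from their range. In this work 2 capped ratios were left out, swapped arrays were turned, each array was centred on its median, and rows of 1 gene were averaged. Names came from the platform annotation, updated by gene ID to RefSeq (14894 of 15116 rows matched). Rows without a single gene were tested on their own. Tests used limma 3.58.1 in R 4.3.3 with a mean per day and a dye term, and needed values on at least 3 arrays of a day. The script was also run on simulated arrays with independent noise. These lacked the dye, print-block and clone effects of the real arrays, so that run does not measure the accuracy of the results here. The number of arrays limits the precision. No sequences were used here.

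The members, the lists and the rule for named genes (every binding protein tested, every receptor here, and the 3 other chemosensory genes with the smallest p per day) were chosen with earlier results of these data known.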

Additional observations from a re-analysis of the deposited data

Results flagged for a closer look

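Obp83cd on day 10 replicate 3 stood apart from the other day 10 arrays, at 0.544 against -0.38, -0.56 and -0.44. The gap to the nearest array was 0.832 of the range of the 4 arrays, above the critical value of Dixon's test. Of 30 sets of 4 arrays examined in this way 1 stood out, and about 1 in 20 does so by chance. On that array, as on day 10 replicate 4, 1 of the 2 clones of the gene had a value. That clone alone stood at 0.16, 0.05, 0.54 and -0.44 on the day 10 arrays, and the other, at -0.92 and -1.18, entered the means of replicates 1 and 2 only.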

How the results depend on the processing

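With the swapped arrays left unturned, 304 features and 1 binding protein (Obp56d) were then called at day 10, the receptor median was -0.53 at day 10 and the binding protein median was 0.037 at day 14, and 22 of 57 member values changed sign. No other setting called a member. Fits over both days give them 1 spread, although the SD over spots was 0.52 to 0.86 on day 10 arrays and 0.33 to 0.43 on day 14 arrays. At day 14, 70 features were called with the day fitted alone and 39 with arrays scaled to one spread, against 0. Leaving out 1 array in turn gave medians of -0.02 to 0.15 (day 10), -0.17 to -0.09 (day 14) and -0.22 to -0.08 (difference) for binding proteins and of -0.24 to 0.0645, 0.01 to 0.29 and 0.12 to 0.55 for receptors, with 0 calls throughout. Counting a gene only where all its spots had values lowered the mean share of binding proteins from 88.2% to 78.9% at day 10 and from 81.6% to 63.2% at day 14. The replicate block in place of the dye term gave 0 calls and medians of -0.12 and 0.40 for the difference, the same as without it. The numbers were not taken to pair the arrays: deviations of same-numbered arrays, which share a dye orientation, correlated at 0.06, 0.42, 0.39 and 0.10, and 2 of 4 numbers correlated best with their own. Print-block centring changed the sign of 7 of 57 member values. The share of spots was added after seeing the data.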
